A study of Homo sapiens with 9 samples.

Results

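CIDEB and 9 genes whose proteins coat, build or break down lipid droplets were followed through RNA-seq of A549 cells, an established human lung adenocarcinoma line. The 10 genes, CIDEB, CIDEC, PLIN2, PLIN3, PNPLA2, LIPE, ABHD5, DGAT1, DGAT2 and HILPDA, were taken by symbol from the 18143 genes listed for every library. Cells were transfected with scramble siRNA or with either of 2 siRNAs against REV1, SiREV1#1 and SiREV1#2, and harvested after 48 h, with 3 libraries per group and 9 in all. Every group is the same unmodified line with a transient transfection, and both siRNA groups were compared with the same 3 scramble libraries. The labels do not say whether the replicates were separate cultures, so the p-values measure only the spread between these libraries.

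CIDEB was chosen by its FPKM, which had risen with both siRNAs in these same libraries, so its values are given as a description without a test. The question put to the data was whether the other 9 genes moved with it.

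A lipid droplet is a store of triacylglycerol and sterol esters enclosed by a single layer of phospholipid. DGAT1 and DGAT2 catalyze the last step of triacylglycerol synthesis, perilipins (the PLIN genes) coat the droplet surface, and CIDE proteins bring droplets into contact and let the smaller one empty into the larger. Lipolysis starts with PNPLA2 and its coactivator ABHD5, continues with LIPE, and is restrained by HILPDA. CIDEB is best known from hepatocytes, where it also serves the lipidation of very-low-density lipoprotein, and CIDEC from adipocytes. REV1 is a polymerase and scaffold of translesion DNA synthesis.

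The values are FPKM, fragments scaled to transcript length and to sequencing depth, given to 2 decimals, and estimated counts. Total counts ranged from 13059082 to 20166451 per library. The count column given for SiREV1#2 replicate 3 repeated that of replicate 2 in 100.0% of genes, so fits on counts hold 8 libraries and fits on FPKM hold all 9. REV1 itself, the target, was at 7.23 to 8.44 FPKM in the scramble libraries, at 2.6 to 3.36 after SiREV1#1 and at 3.18 to 3.62 after SiREV1#2. Its fall after SiREV1#1 passed the edgeR quasi-likelihood test (log2 fold change −1.26, SE 0.17, adjusted p = 0.042), whereas after SiREV1#2 it passed only with the replicate number in the model as a block (−1.27, SE 0.15, adjusted p = 0.0099). Replicate 1 of every group stood apart from replicates 2 and 3, and several lipid droplet genes carried that shift. HILPDA in replicate 1 was 4.77, 2.11 and 3.90 times the mean of replicates 2 and 3 in the scramble, SiREV1#1 and SiREV1#2 groups, and ABHD5 was 0.355, 0.276 and 0.288 times that mean. Changes were therefore also read within libraries of the same replicate number, which are called pairs here.

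Of the 5 epithelial markers, KRT8 was between 1371.89 and 5601.72 FPKM, KRT18 between 2490.94 and 5215.70 and CDH1 between 6.32 and 43.79, while EPCAM was between 0.73 and 2.38 and KRT19 between 0.10 and 1.34. The 4 lung lineage markers were nearly absent, summing to 0.90 to 3.44 FPKM, with NKX2-1 never above 0.26. Of the other cell types checked, the endothelial and fibroblast lists summed to at most 0.14 and 1.60 FPKM, and the 3 listed adipocyte genes to 0.28 to 0.64 in scramble, 1.10 to 2.82 after SiREV1#1 and 0.41 to 1.34 after SiREV1#2. After SiREV1#1 most of that adipocyte sum was PLIN1, and ADIPOQ, the defining adipokine, was between 0.07 and 0.31 in the 9 libraries. The hepatocyte list summed to 0.0 to 0.85 in scramble, 0.58 to 2.31 after SiREV1#1 and 0.15 to 0.84 after SiREV1#2, with ALB at 0.67, 0.00 and 0.04 in scramble and 1.80, 0.58 and 0.96 after SiREV1#1, higher in 3 of 3 pairs as CIDEB was. The leukocyte list summed to 1.02 to 6.50, led by CD14 in replicate 1 of each group, and PTPRC was never above 0.47. Whether these low signals had any part in the results was not tested.

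CIDEB lies on the minus strand at chr14:24305096-24311430 (GRCh38), and GENCODE lists 6 transcripts for it. CIDEB-201 and CIDEB-202, of 2294 and 2409 bases, start upstream, CIDEB-203, of 1602 bases, starts farther inside the gene at position 24308263, and each of these 3 carries 657 coding bases. RefSeq gives promoter windows of 300 bases for an upstream and an internal start (GRCh38.p14, minus strand, written 5′ to 3′), and the internal window lies downstream of the start of CIDEB-203. Both are shown because CIDEB is the gene the comparison turns on. The windows of PLIN2 and PLIN3, perilipins with lower values after SiREV1#1, are shown for contrast. Capitals mark the motifs described after them.

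CIDEB, upstream start, chr14:24311386-24311685: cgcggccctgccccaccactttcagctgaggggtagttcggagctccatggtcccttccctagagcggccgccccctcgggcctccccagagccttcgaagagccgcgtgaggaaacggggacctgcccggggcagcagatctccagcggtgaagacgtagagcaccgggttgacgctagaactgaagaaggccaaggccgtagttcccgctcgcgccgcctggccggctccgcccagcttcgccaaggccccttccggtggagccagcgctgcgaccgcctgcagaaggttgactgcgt

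CIDEB, internal start, chr14:24307928-24308227: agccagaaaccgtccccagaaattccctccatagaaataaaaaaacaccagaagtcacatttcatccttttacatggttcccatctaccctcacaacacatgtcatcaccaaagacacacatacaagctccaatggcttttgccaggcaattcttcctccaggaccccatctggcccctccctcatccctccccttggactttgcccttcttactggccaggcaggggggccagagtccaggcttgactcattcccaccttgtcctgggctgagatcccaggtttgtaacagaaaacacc

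PLIN2, chr9:19127443-19127742: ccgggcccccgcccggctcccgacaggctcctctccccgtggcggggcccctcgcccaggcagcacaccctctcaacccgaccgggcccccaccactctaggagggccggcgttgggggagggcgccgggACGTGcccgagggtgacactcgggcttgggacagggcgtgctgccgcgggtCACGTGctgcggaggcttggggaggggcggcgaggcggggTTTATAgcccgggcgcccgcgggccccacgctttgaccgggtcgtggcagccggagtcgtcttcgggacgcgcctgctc

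PLIN3, chr19:4867618-4867917: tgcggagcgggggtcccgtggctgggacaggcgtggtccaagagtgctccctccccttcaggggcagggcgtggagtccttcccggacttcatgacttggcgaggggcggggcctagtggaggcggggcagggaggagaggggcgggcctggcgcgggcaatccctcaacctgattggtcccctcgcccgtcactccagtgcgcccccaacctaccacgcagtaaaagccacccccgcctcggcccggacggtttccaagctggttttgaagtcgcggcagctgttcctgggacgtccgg

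3 motifs were searched on both strands, ACGTG (the core of the hypoxia response element), AGGTCA (bound by nuclear receptors) and TATAAA (the TATA box). The PLIN2 window held 3 matches to ACGTG, of which a pair is the palindrome CACGTG read on both strands, and 1 to TATAAA, seen as TTTATA. Neither CIDEB window nor the PLIN3 window held any of the 3. Of 35116 RefSeq windows of the same length, 21.4% held ACGTG, 13.8% AGGTCA and 11.5% TATAAA, so single matches are common. RefSeq windows were at hand for 7 of the 10 genes, and among the others the PNPLA2 window held 1 AGGTCA, while those of CIDEC, ABHD5 and LIPE held none of the motifs.

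CIDEB was at 1.22, 3.46 and 4.11 FPKM in scramble replicates 1 to 3, at 12.27, 10.57 and 10.91 after SiREV1#1 and at 3.15, 10.13 and 10.20 after SiREV1#2. It was higher in every pair, by 10.1-, 3.05- and 2.65-fold with SiREV1#1 and by 2.58-, 2.93- and 2.48-fold with SiREV1#2. All SiREV1#1 libraries lay above all scramble libraries, but SiREV1#2 replicate 1, at 3.15, lay inside the scramble range. The group means were 2.93 ± 1.52 (SD, n = 3) in scramble, 11.3 ± 0.900 after SiREV1#1 and 7.83 ± 4.05 after SiREV1#2. For scale, 6.35% of genes with a mean of at least 1 FPKM were higher without overlap after SiREV1#1 and 6.61% after SiREV1#2. In bulk RNA, a higher level in every cell and more cells with the transcript cannot be told apart.

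**Figure D1:**
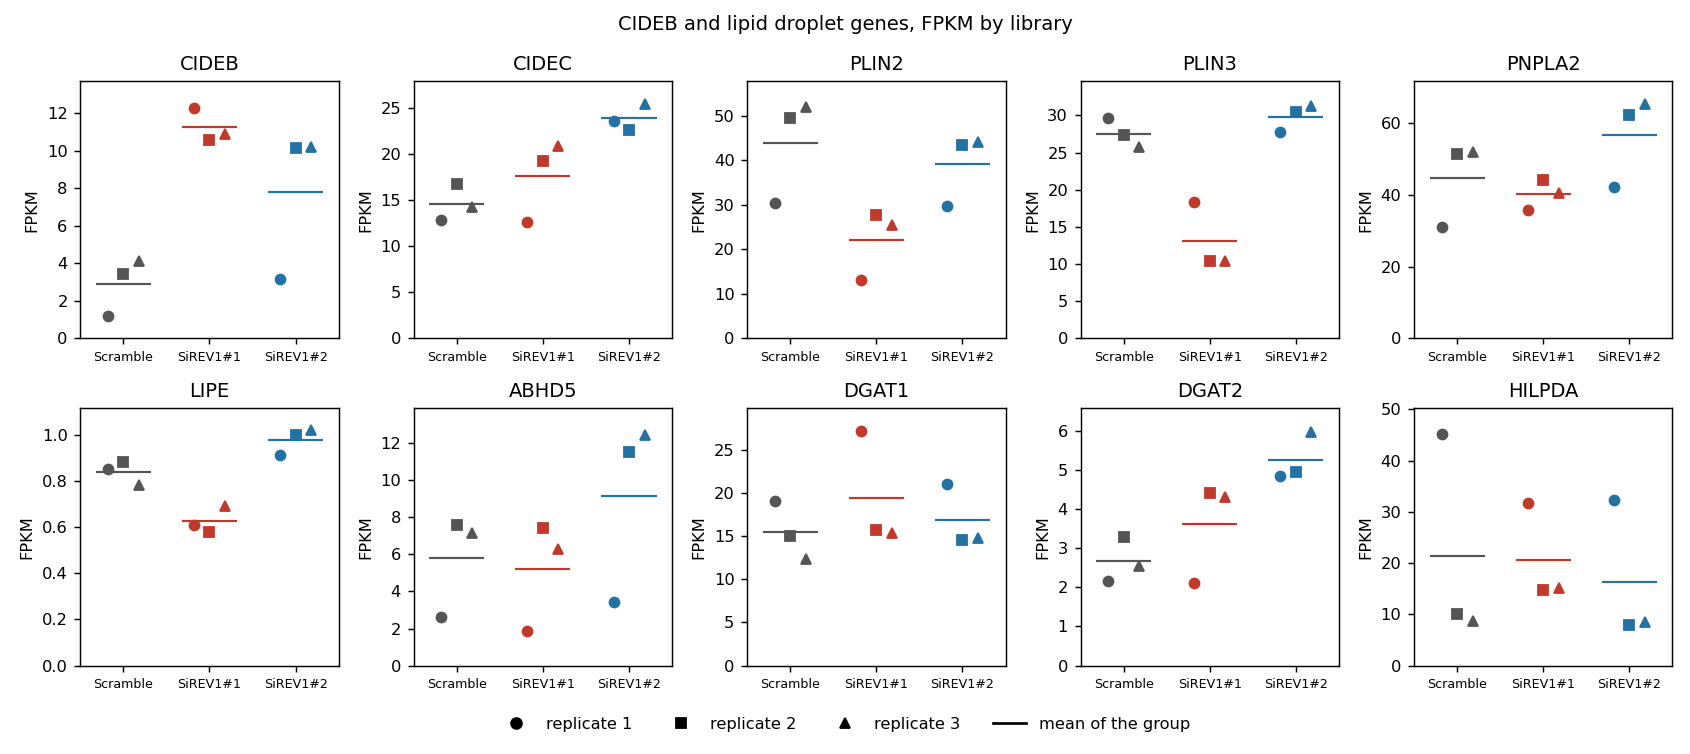
FPKM (linear axes starting at 0, 1 panel per gene) of CIDEB and 9 lipid droplet genes in the scramble, SiREV1#1 and SiREV1#2 groups, with 1 symbol per library shaped by replicate number and a line at the group mean. CIDEB is higher in every pair, PLIN2 and PLIN3 are low in all SiREV1#1 libraries, and replicate 1 is displaced from replicates 2 and 3 for CIDEB, ABHD5 and HILPDA.

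The size of the CIDEB difference depended on replicate 1 and on the unit. From normalized counts (CPM with TMM scaling), the folds were 6.62, 2.84 and 2.49 with SiREV1#1 and 1.72 and 2.76 with SiREV1#2 in replicates 1 and 2. The log2 fold changes in edgeR were 1.81 (SE 0.42) and 1.03 (SE 0.45), and the latter was 0.17 without SiREV1#2 replicate 2 and 1.57 without SiREV1#2 replicate 1. The ratio of count to FPKM, which follows the effective length assigned to a gene, was 74.5 for CIDEB in scramble replicate 1 and between 39.0 and 47.6 in the other 7 libraries with counts. That spread of 1.91-fold was larger than for 99.7% of 9056 genes with at least 100 counts per library, whose median spread was 1.02-fold. CIDEB itself had an estimated count of 89.62 in scramble replicate 1 and between 145.81 and 450.74 in the others, and the part of this conversion in its fold changes was not tested beyond the folds from counts given above.

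CIDEB also shares its place in the genome. All 3198 bases of its annotated exons lie opposite exons of genes on the plus strand, 61.1% opposite NOP9, an RNA-binding protein of ribosome biogenesis, and 39.9% opposite LTB4R2, a leukotriene receptor. Neither the strandedness of the libraries nor that of the counting is given in the sources used here, so CIDEB reads and reads of its partners cannot be told apart. NOP9 was at 7.75, 3.51 and 4.41 FPKM in scramble, 7.21, 2.86 and 3.16 after SiREV1#1 and 5.89, 3.07 and 2.69 after SiREV1#2. LTB4R2 was at 2.29, 1.55 and 1.86, then 0.77, 1.28 and 1.66, and 1.08, 1.27 and 1.37. In FPKM both partners were lower in 3 of 3 pairs with each siRNA, opposite to CIDEB. Of all genes with a mean of at least 1 FPKM, 35.5% were so with SiREV1#1 and 29.7% with SiREV1#2. In normalized counts NOP9 was at 1.01 times scramble in SiREV1#1 replicate 1. Neither partner passed the edgeR test with either siRNA.

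The qPCR primers designed for CIDEB in this study sit inside that shared stretch, which is why they are shown.

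CIDEB forward primer: ccaagcacagcaaggacatc

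CIDEB reverse primer: gacattcaggctgccaaagag

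Together they span 83 bases at chr14:24306018-24306100, within 1 coding exon of CIDEB-201, CIDEB-202 and CIDEB-203. Of 206694 GENCODE transcripts, those 3 were the ones holding both primer sites in the direction of CIDEB. Transcripts holding the sites in the opposite direction were not searched for, so the search does not show that the primers match CIDEB alone. All 83 bases are also exon sequence of NOP9 or LTB4R2 in the opposite direction.

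**Figure D2:**
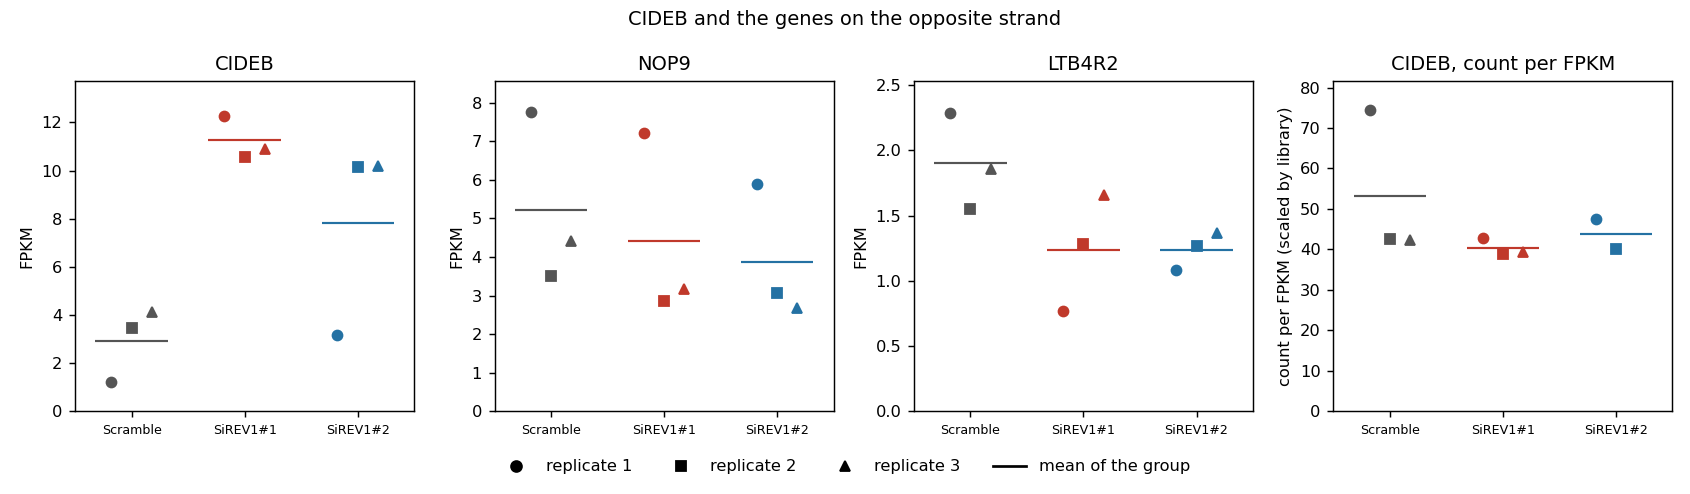
FPKM by library of CIDEB and of NOP9 and LTB4R2, whose exons cover those of CIDEB on the opposite strand, and the CIDEB count divided by its FPKM with library depth removed (8 libraries with counts; symbols by replicate, lines at group means, all axes from 0). Scramble replicate 1 has the lowest CIDEB FPKM, 1.22, and the highest count per FPKM, 74.5.

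In scramble cells the droplet genes spanned a wide range of expression. PNPLA2 (44.9 ± 12.0 FPKM, SD, n = 3) and PLIN2 (44.0 ± 11.9) were the highest, followed by PLIN3 (27.6 ± 1.95), HILPDA (21.3 ± 20.6), DGAT1 (15.5 ± 3.36), CIDEC (14.6 ± 1.94), ABHD5 (5.79 ± 2.76), CIDEB, DGAT2 (2.66 ± 0.568) and LIPE (0.837 ± 0.0513). Most neighbors in this order overlapped. The exceptions were PLIN2 above PLIN3, CIDEC above ABHD5 and DGAT2 above LIPE, where every scramble library of the former exceeded every one of the latter. CIDEC transcripts were therefore more abundant than CIDEB transcripts in all 3 scramble libraries on this per-length scale.

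Both perilipins of the set were lower after SiREV1#1. PLIN2 (chr9:19108375-19149290), found on droplets of most cell types, was at 30.35, 49.50 and 52.05 FPKM in scramble, 13.15, 27.76 and 25.44 after SiREV1#1, and 29.81, 43.49 and 44.10 after SiREV1#2. All SiREV1#1 libraries lay below all scramble libraries, while the SiREV1#2 libraries lay within or close to the scramble range. Within pairs PLIN2 was at 0.433, 0.561 and 0.489 times scramble with SiREV1#1 and at 0.982, 0.879 and 0.847 times with SiREV1#2 (exact permutation test on 3 against 3 libraries, two-sided p = 0.1 and 0.5, where 0.1 is the smallest p possible). The edgeR log2 fold change after SiREV1#1 was −0.95 (SE 0.33, adjusted p = 0.37), and with the replicate block −0.95 (SE 0.13, adjusted p = 0.0051), so with all 8 libraries its fall passed with the block and not without it. No other gene's exons overlap those of PLIN2.

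PLIN3 (chr19:4838341-4867768), a perilipin that moves between cytosol and small droplets, was also lower after SiREV1#1. It was at 29.60, 27.34 and 25.71 FPKM in scramble, 18.29, 10.47 and 10.39 after SiREV1#1, and 27.78, 30.43 and 31.31 after SiREV1#2. Again the SiREV1#1 libraries lay below every other library, and the SiREV1#2 libraries overlapped scramble. The log2 fold change after SiREV1#1 was −0.98 (SE 0.29, edgeR adjusted p = 0.29), or −1.03 (SE 0.21, adjusted p = 0.020) with the replicate block and −1.39 (adjusted p = 0.043) without SiREV1#1 replicate 1. An antisense gene, AC027319.1, covers 17.8% of its exon bases.

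CIDEC (chr3:9866711-9880254), the closest relative of CIDEB in the set, was at 12.89, 16.73 and 14.29 FPKM in scramble, 12.64, 19.30 and 20.92 after SiREV1#1, and 23.59, 22.59 and 25.48 after SiREV1#2. All SiREV1#2 libraries lay above all others, by 1.83, 1.35 and 1.78 times scramble within pairs (exact permutation test, two-sided p = 0.1). After SiREV1#1 it was at 0.981, 1.15 and 1.46 times scramble, and the groups overlapped. In edgeR the log2 fold changes were 0.35 (SE 0.21, adjusted p = 0.72) and 0.70 (SE 0.23, adjusted p = 0.66). With the replicate block they were 0.34 (adjusted p = 0.21) and 0.76 (adjusted p = 0.083). In the fit on FPKM with all 9 libraries and the block (limma-trend on log2(FPKM + 1)) CIDEC rose with SiREV1#2, by 0.68 (SE 0.15, adjusted p = 0.025).

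The lipolysis genes gave mostly small differences, and several went opposite ways with the 2 siRNAs. PNPLA2, the first triacylglycerol lipase (chr11:818902-825573), was at 31.02, 51.41 and 52.14 FPKM in scramble, 35.79, 44.30 and 40.48 after SiREV1#1, and 42.31, 62.29 and 65.43 after SiREV1#2. It was higher in 3 of 3 pairs with SiREV1#2, by 1.36, 1.21 and 1.25 times, and in 1 of 3 with SiREV1#1, with overlapping groups in both. Its edgeR log2 fold changes were −0.08 and 0.25 (SE 0.25 and 0.28, adjusted p = 1.0 for both).

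ABHD5 (chr3:43690108-43734371), which activates PNPLA2, was at 2.62, 7.58 and 7.18 FPKM in scramble, 1.89, 7.40 and 6.29 after SiREV1#1, and 3.45, 11.52 and 12.46 after SiREV1#2. Replicate 1 was the lowest library of each group, so the groups overlapped, but within pairs ABHD5 was at 1.32, 1.52 and 1.74 times scramble with SiREV1#2 and at 0.721, 0.976 and 0.876 times with SiREV1#1. The edgeR log2 fold changes were 0.01 (SE 0.55) and 0.57 (SE 0.61), with adjusted p = 1.0 for both. With the replicate block the SiREV1#2 value was 0.70 (SE 0.17, adjusted p = 0.082), and in limma on FPKM with the block it rose by 0.52 (SE 0.12, adjusted p = 0.027). Its count per FPKM, like that of CIDEB, varied between libraries more than for most genes (1.59-fold, above 99.1% of genes).

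LIPE, hormone-sensitive lipase (chr19:42401507-42427426), was the lowest of the set, at 0.85, 0.88 and 0.78 FPKM in scramble, 0.61, 0.58 and 0.69 after SiREV1#1, and 0.91, 1.00 and 1.02 after SiREV1#2. The 3 groups did not overlap, SiREV1#1 lying below and SiREV1#2 above scramble (two-sided exact permutation p = 0.1 with each siRNA). The edgeR log2 fold changes were −0.35 and 0.24 (SE 0.25 and 0.27, adjusted p = 0.80 and 1.0), and neither passed with the block. The antisense gene LIPE-AS1 covers 9.60% of its exon bases.

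HILPDA, the hypoxia-inducible inhibitor of PNPLA2 (chr7:128455849-128458418), followed replicate number more than siRNA. It was at 45.10, 10.14 and 8.76 FPKM in scramble, 31.64, 14.82 and 15.12 after SiREV1#1, and 32.31, 7.99 and 8.60 after SiREV1#2. Replicate 1 was the highest library of every group. Within pairs it was at 0.702, 1.46 and 1.73 times scramble with SiREV1#1 and at 0.716, 0.788 and 0.982 times with SiREV1#2. The edgeR log2 fold changes were 0.05 (SE 0.79) and −0.03 (SE 0.89), with adjusted p = 1.0 for both.

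Of the enzymes of the last step of synthesis, DGAT2 was separated from scramble after SiREV1#2 and DGAT1 was not. DGAT2 (chr11:75759512-75801535) was at 2.15, 3.27 and 2.55 FPKM in scramble, 2.11, 4.41 and 4.30 after SiREV1#1, and 4.85, 4.94 and 5.95 after SiREV1#2. Every SiREV1#2 library lay above every other library, at 2.26, 1.51 and 2.33 times scramble within pairs (exact permutation test, two-sided p = 0.1), and the SiREV1#1 libraries overlapped scramble. In edgeR the log2 fold changes were 0.48 (SE 0.33, adjusted p = 0.78) and 0.87 (SE 0.36, adjusted p = 0.87). With the block the latter was 0.96 (adjusted p = 0.099), and in limma on FPKM with the block DGAT2 rose by 0.78 (SE 0.16, adjusted p = 0.021).

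DGAT1, on chromosome 8, was at 19.04, 14.97 and 12.38 FPKM in scramble, 27.13, 15.65 and 15.38 after SiREV1#1, and 21.08, 14.57 and 14.77 after SiREV1#2. In FPKM it was the sole gene of the 9 to be higher in 3 of 3 pairs with SiREV1#1, by between 1.05 and 1.42 times, with overlapping groups. Its edgeR log2 fold changes were 0.31 and 0.27 (SE 0.30 and 0.33, adjusted p = 0.90 and 1.0).

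**Figure D3:**
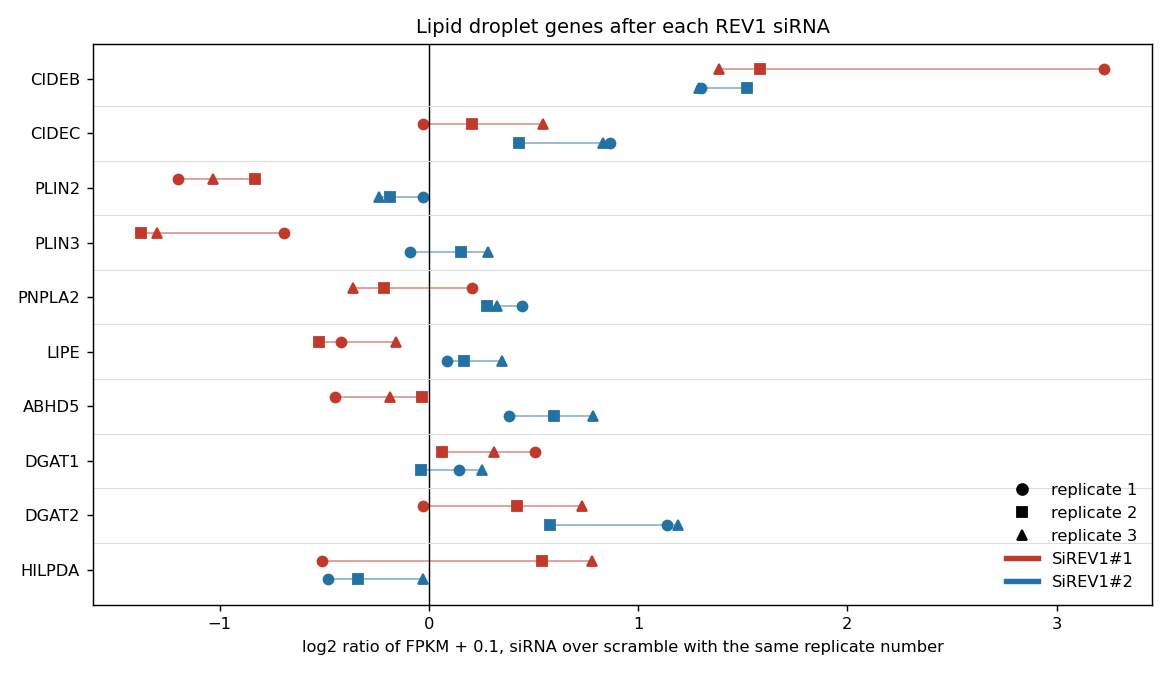
Log2 ratio of FPKM + 0.1 in each siRNA library over the scramble library of the same replicate number, for CIDEB and 9 lipid droplet genes (symbols by replicate, red SiREV1#1, blue SiREV1#2, thin lines join the 3 pairs). CIDEB is to the right of 0 in all 6 pairs, which no other gene is, and PLIN2 is to the left of 0 in all 6.

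Set side by side in FPKM, none of the other 9 genes was higher in every pair with both siRNAs as CIDEB was. This depended on the unit, because in normalized counts CIDEC and DGAT2 were higher in every pair with counts, with both siRNAs. In SiREV1#1 replicate 1 they were at 1.13 and 1.04 times scramble in normalized counts, and each at 0.981 times in FPKM. SiREV1#2 replicate 3 had no counts of its own. In FPKM with SiREV1#1, 1 was higher in 3 of 3 pairs (DGAT1) and 4 were lower (PLIN2, PLIN3, LIPE, ABHD5). The shares of all genes with a mean of at least 1 FPKM were 19.6% and 35.5%. With SiREV1#2, 5 were higher (CIDEC, PNPLA2, LIPE, ABHD5, DGAT2) and 2 lower (PLIN2, HILPDA), against 25.9% and 29.7%. PLIN2 alone was lower in every FPKM pair with both, and in normalized counts it was at 1.03 times scramble in SiREV1#2 replicate 1. The share of all genes with one direction in every pair with both siRNAs was not computed, so these joint counts have no background. Without overlap between groups, 3 of 9 were lower after SiREV1#1, where the share of all genes was 13.8%, and 3 of 9 were higher after SiREV1#2, where it was 6.61%. LIPE, with a mean under 1 FPKM, is in the counts of the 9 but not in these shares of all genes. All siRNA ratios of a gene share the same scramble libraries, so a high or low scramble library moves the ratios of both siRNAs together.

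All 10 genes passed the filter on low counts in edgeR. Without the block, 0 of the 9 passed after SiREV1#1 or SiREV1#2, or between the siRNAs, at an adjusted p under 0.05. The shares of all 14205 genes that passed were 0.296%, 0.0% and 0.676%. At an unadjusted p under 0.05 there were 2 of 9 (PLIN2, PLIN3), 2 of 9 (CIDEC, DGAT2) and 1 of 9 (PLIN3), beside 1385, 778 and 1762 of all genes. DESeq2 called 0, 0 and 1 of the 9, counts without a background because the share of all genes it called is not given here. With the replicate block, 2 of 9 fell after SiREV1#1 (PLIN2, PLIN3), where 12.3% of all genes passed and 6.96% passed as lower, and 0 of 9 passed after SiREV1#2, where 1.91% passed and 3 of the 9 had an unadjusted p under 0.05.

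The siRNAs were compared with each other in the same fits. With the block, PLIN2 (−0.86, SE 0.15, edgeR adjusted p = 0.0096), PLIN3 (−1.04, SE 0.24, adjusted p = 0.025) and ABHD5 (−0.68, SE 0.17, adjusted p = 0.030) were lower after SiREV1#1 than after SiREV1#2, and 17.6% of all genes differed. In limma on FPKM with the block, in which LIPE was left out for a mean under 1 FPKM, 2 of 8 fell after SiREV1#1, 3 of 8 rose after SiREV1#2 (ABHD5, CIDEC, DGAT2) and 6 of 8 differed between the siRNAs. The shares of all 11432 genes were 19.7%, 11.3% and 36.5%. The median log2 fold change of the 9 genes in edgeR without the block was 0.014 after SiREV1#1 and 0.25 after SiREV1#2, and over all genes tested 0.0024 and 0.021.

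Leaving replicate 1 out of every group changed the picture for CIDEC, DGAT2, PNPLA2 and HILPDA. In limma on FPKM of replicates 2 and 3, a fit chosen after seeing the data, CIDEC rose with both siRNAs (0.36 and 0.60 on the log2 scale, adjusted p = 0.0047 and 0.00020), as did DGAT2 (0.46 and 0.72, adjusted p = 0.0046 and 0.00030). PLIN2 fell with both (−0.91 and −0.21, adjusted p = 7.9e-07 and 0.010), though in edgeR on the same replicates its SiREV1#2 value did not pass (−0.22, adjusted p = 0.062). PNPLA2 fell with SiREV1#1 and rose with SiREV1#2 (−0.28 and 0.30), as did PLIN3 (−1.27 and 0.21). HILPDA rose with SiREV1#1 (0.61, adjusted p = 9.4e-05), and DGAT1 passed with neither. In that fit 56.8% and 55.4% of all genes passed against scramble and 70.2% between the siRNAs. In edgeR on replicates 2 and 3, where SiREV1#2 has 1 library with counts, assumed to vary like the others, the shares were 46.5%, 38.4% and 54.4%, and 6, 4 and 5 of the 9 genes passed. CIDEB had log2 fold changes of 1.40 and 1.34 there.

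Lipid metabolism genes beyond the set were taken from 6 lists of droplet coat, lipolysis, droplet assembly, synthesis, fatty acid uptake and PPAR genes, 79 symbols that include older and newer names of some genes. Of these, 71 were in the files and 64 passed the filter on low counts. In edgeR without the block 0 of 64 passed after either siRNA (7 and 3 at an unadjusted p under 0.05). With the block 8 rose and 3 fell after SiREV1#1, where 5.32% of all genes rose and 6.96% fell. After SiREV1#2 0 passed with the block, and 15 of 64 had an unadjusted p under 0.05, beside 2571 of all 14205 genes.

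Among droplet coat genes, 1 of 10 rose after SiREV1#1 in edgeR with the block, where 5.32% of all genes did. It was PLIN1, the perilipin of adipocytes, at 0.34, 0.12 and 0.12 FPKM in scramble, 2.41, 0.95 and 0.98 after SiREV1#1 and 0.89, 0.23 and 0.23 after SiREV1#2. Its log2 fold change with the block was 3.05 (SE 0.27, edgeR adjusted p = 0.0011) after SiREV1#1 and 1.27 (SE 0.32, adjusted p = 0.095) after SiREV1#2. PLIN1 was higher in every pair with both siRNAs, as CIDEB was, but its counts were low, from 7 to 18 in scramble and from 55 to 94 after SiREV1#1. PLIN4, another perilipin of adipocytes, was also higher in 3 of 3 pairs with SiREV1#1, at 0.15, 0.04 and 0.05 FPKM in scramble and 0.27, 0.08 and 0.14 after SiREV1#1. After SiREV1#2 PLIN4 was at 0.14, 0.08 and 0.03, lower than scramble in replicates 1 and 3. ADIPOQ was at 0.15, 0.15 and 0.11 in scramble. It was higher in 3 of 3 pairs with SiREV1#2, at 0.31, 0.17 and 0.15, and lower in 3 of 3 with SiREV1#1, at 0.14, 0.07 and 0.09. The part of these low adipocyte genes in the PLIN1 result was not tested. AUP1, the most abundant of this list in scramble at 82.1 FPKM, was at 85.4 and 86.7 after the siRNAs and did not pass.

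Among lipolysis genes 1 of 10 rose and 1 fell after SiREV1#1, where 5.32% and 6.96% of all genes did. DDHD2, a triacylglycerol lipase best known from neurons, rose by 0.50 (SE 0.13, adjusted p = 0.041), and MGLL, which cleaves monoacylglycerol, fell by 0.54 (SE 0.12, adjusted p = 0.026), both in edgeR with the block. DDHD2 was higher in every FPKM pair with both siRNAs. In limma on FPKM with the block it passed with neither (adjusted p = 0.053 and 0.14). MGLL was at 43.51, 53.93 and 53.60 FPKM in scramble, 26.71, 35.35 and 36.19 after SiREV1#1 and 30.30, 33.53 and 34.81 after SiREV1#2, below scramble in every library of both siRNAs. Its SiREV1#2 value was −0.56 (adjusted p = 0.091) in that fit and −0.60 (adjusted p = 0.0098) in limma on FPKM with the block. SQSTM1, an autophagy receptor and the most abundant of the list, did not pass against scramble in edgeR (−0.25 and 0.61 with the block) but differed between the siRNAs (−0.86, adjusted p = 0.019).

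Of the 13 PPAR targets and regulators tested, 4 rose after SiREV1#1 in edgeR with the block, where 5.32% of all genes rose, and none fell. The 4 in edgeR were PPARA, a fatty acid sensing nuclear receptor (0.77, SE 0.17, adjusted p = 0.025), and ANGPTL4, a secreted inhibitor of lipoprotein lipase (0.56, SE 0.14, adjusted p = 0.039), with CPT2 of the mitochondrial carnitine shuttle (0.55, SE 0.14, adjusted p = 0.038) and HADHA of beta-oxidation (0.46, SE 0.12, adjusted p = 0.046). In limma on FPKM with the block 2 of 12 rose, ANGPTL4 (0.46, adjusted p = 0.034) and HADHA (0.38, adjusted p = 0.044). PPARA and CPT2 did not pass in limma (adjusted p = 0.093 and 0.055). PPARA was low, at 1.70, 0.61 and 0.58 FPKM in scramble, with the highest value in replicate 1. In edgeR without the block its value after SiREV1#1 was 0.69 (SE 0.72, adjusted p = 0.92). The list's median in edgeR with the block was 0.46 after SiREV1#1 and 0.30 after SiREV1#2, beside 0.0042 and 0.0073 over all genes. After SiREV1#2 none of the 4 passed in edgeR, with values of 0.47, 0.57, 0.53 and 0.04. In limma with the block 1 of 12 rose after SiREV1#2, ANGPTL4 (0.58, adjusted p = 0.023). Of all genes, 19.7% passed in limma with the block after SiREV1#1 and 11.3% after SiREV1#2. PPARA, ANGPTL4 and CPT2 were higher in every FPKM pair with both siRNAs, and HADHA was not. Of all genes, 19.6% were higher in every pair with SiREV1#1 and 25.9% with SiREV1#2.

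Outside the PPAR list the medians of the 5 other lists after SiREV1#1 lay between −0.13 for lipolysis and 0.11 for droplet coat and droplet assembly genes. In synthesis, ACSL5 rose by 1.25 (SE 0.25, adjusted p = 0.020), from 0.12 to 1.32 FPKM in scramble with the highest value in replicate 1, and ACSL4 fell by 0.54 (SE 0.13, adjusted p = 0.037). Both activate fatty acids to their CoA esters. In uptake the transporter SLC27A4 rose by 0.77 (SE 0.18, adjusted p = 0.033), and in assembly TMEM159, a partner of seipin, fell by 0.71 (SE 0.16, adjusted p = 0.029), all after SiREV1#1 in edgeR with the block. The most abundant genes of these lists in scramble, VMP1, AGPAT1 and FABP5, did not pass with either siRNA in that fit. FABP5 did differ between the siRNAs there (0.55, SE 0.16, adjusted p = 0.049), as did 17.6% of all genes. In limma on FPKM with the block FABP5 fell after SiREV1#2 (−0.54, SE 0.13, adjusted p = 0.031), where 11.3% of all genes passed.

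**Figure D4:**
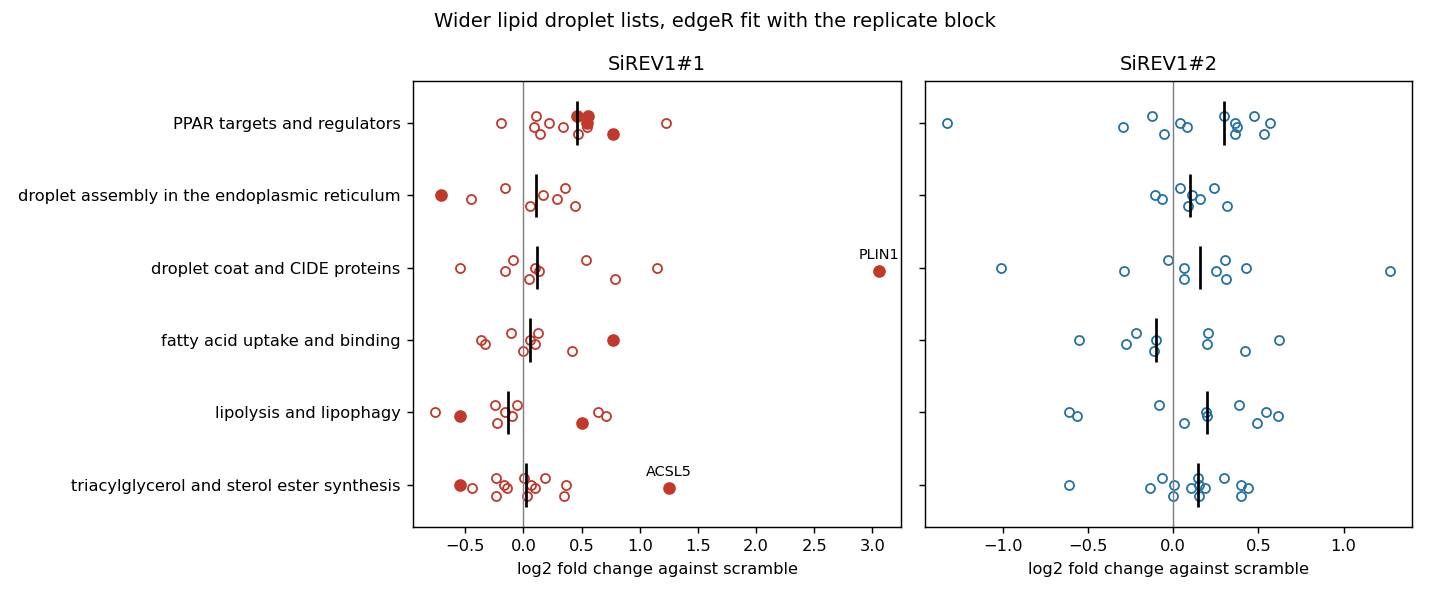
Log2 fold change against scramble of 64 lipid metabolism genes in 6 lists, from the edgeR fit with the replicate block, for SiREV1#1 (left) and SiREV1#2 (right); each circle is a gene, filled where the adjusted p is under 0.05, and black bars are list medians (the horizontal axes differ in range, and vertical offsets only separate circles). After SiREV1#1, 11 circles are filled, with PLIN1 at 3.05 farthest to the right, and after SiREV1#2 none is.

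To find the genes whose pattern was most like that of CIDEB, log2(FPKM + 1) was centred within same-numbered libraries and the root mean square difference from CIDEB was taken over the 9 libraries, among 11431 genes. Among the 5 nearest were TOR2A (0.348), TMEM140 (0.356), STK40 (0.359) and FGB (0.367), where a gene that did not vary would be at 0.786. FGB, the fibrinogen beta chain, was at 57.49, 101.79 and 118.81 FPKM in scramble, 145.05, 183.17 and 178.43 after SiREV1#1, then 57.23, 203.15 and 188.07 after SiREV1#2. Like CIDEB, it was low in replicate 1 of SiREV1#2. Of the 8 lipid droplet genes ranked, which leave out LIPE for its mean under 1 FPKM, the closest was DGAT1 at rank 828, and PLIN3 and PLIN2 were at ranks 11092 and 11131.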

How the data were processed

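RNA-seq of 9 A549 libraries was analysed. For each gene the authors deposited an estimated count (expected count), not normalized, and an FPKM value scaled to transcript length and sequencing depth. The submitters' processing notes name StringTie 1.3.3b and hg38, without their roles. The aligner, the counting options and the strand setting are not given in the sources used here. 1 count column repeated another library's and was not used, so 8 libraries with counts were fitted where 9 had been planned.

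Counts were rounded and fitted in edgeR 4.0.16 (R 4.3.3) with TMM scaling, filterByExpr and the quasi-likelihood test, all groups in one fit and Benjamini-Hochberg adjustment over all genes tested. limma 3.58.1 was run on log2(FPKM + 1) for genes with a mean of at least 1 FPKM, and DESeq2 1.42.0 on counts. Fold changes on the log2(FPKM + 1) scale understate those of low genes. The edgeR script was tested on simulated counts. Pair ratios used FPKM + 0.1. Groups and replicate numbers came from the sample labels. Same-numbered libraries deviated together from their group means (correlations 0.734 to 0.929 over 9 pairs of libraries and 11432 genes), so the numbers were taken to pair the samples. Differences between replicates 2 and 3 were not shared between groups (−0.218 to 0.175). The pairing thus reflects the shift of replicate 1. Annotation was GENCODE 29 and RefSeq GRCh38.p14.

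The genes and lists were chosen with earlier results of these data known. All 10 genes are named. Others are named if they passed in edgeR with or without the block, were the most abundant of their list in scramble, overlap or neighbor CIDEB, or were among the 5 genes most like CIDEB, of which 1 is not reported here. Exon overlap with other genes is given above for CIDEB, PLIN3 and LIPE, whose values are uncertain to that extent. Exons of other genes also cover 13.2% of the exon bases of HILPDA, 11.1% of DGAT1, 10.4% of PNPLA2, 6.83% of DGAT2 and 2.25% of ABHD5. The part of these overlaps in the values was not tested.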

Additional observations from a re-analysis of the deposited data

Results flagged for a closer look

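The response of 3 lipid droplet genes differed between the siRNAs in the edgeR fit with the replicate block. PLIN2 was lower after SiREV1#1 than after SiREV1#2 by −0.86 on the log2 scale, PLIN3 by −1.04 and ABHD5 by −0.68. Without the block none of these differences passed in edgeR (−0.71, −1.09 and −0.56, adjusted p = 0.51, 0.20 and 0.84).

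LIPE moved in opposite directions, with a mean log2 ratio of FPKM + 0.1 within pairs of −0.37 for SiREV1#1, lower in 3 of 3, and 0.20 for SiREV1#2, higher in 3 of 3. This difference in direction was read from the FPKM pairs and was not tested on them. In edgeR the difference was −0.59 (adjusted p = 0.45), or −0.58 (adjusted p = 0.16) with the block. LIPE was also the least abundant of the 10 genes, with a highest value of 1.02 FPKM.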

How the results depend on the processing

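The count of lipid droplet genes passing after SiREV1#1, after SiREV1#2 and between them was 0, 0 and 0 of 9 in edgeR without the block. There 0.296%, 0.0% and 0.676% of all genes passed. It was 2, 0 and 3 with the replicate block, 2, 3 and 6 in limma on FPKM with the block, 6, 4 and 5 with replicates 2 and 3 only, and 6, 6 and 7 in limma with those replicates. DESeq2, limma with a pseudocount of 1 or 0.1 and limma without the FPKM filter each gave 0, 0 and 1, the latter always PLIN3. Shares of all genes in these fits are not given here, so their counts have no background. Leaving out 1 library gave 0 to 1, 0 to 0 and 0 to 1, where the 1 was PLIN3 without SiREV1#1 replicate 1. For the wider lists the counts of 0 and 0 became 11 and 0 with the block, 1 and 0 in DESeq2, 7 and 5 in limma with the block, 36 and 22 with replicates 2 and 3, and 32 and 25 in limma with those, and stayed at 0 to 0 when 1 library was left out. The cause was not tested. Of the other calls given, the block changed those of REV1 after SiREV1#2 and of SQSTM1 and FABP5 between the siRNAs.

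Over the 9 genes other than CIDEB and all alternatives, 267 log2 values kept their direction and side of the threshold, 30 newly passed and 19 changed sign. ABHD5 after SiREV1#1 (0.01) was −0.17 in limma on log2(FPKM + 1), with or without the block or filter, −0.22 with a pseudocount of 0.1, and −0.00030 and −0.098 with replicates 2 and 3 in edgeR and limma. The other changes of sign came with 1 library left out, when ABHD5 ranged from −0.30 to 0.31 and −0.44 to 1.16, PNPLA2 from −0.29 to 0.041 and −0.035 to 0.49, HILPDA from −0.49 to 1.22 and −1.40 to 1.14 after SiREV1#1 and SiREV1#2, and DGAT1 from −0.067 to 0.55 after SiREV1#2. With a pseudocount of 1 the mean pair ratio of CIDEB after SiREV1#2 was 1.12 in place of 1.37, and that of LIPE after SiREV1#1 was −0.18 in place of −0.37. SiREV1#2 had 2 libraries with counts, so leaving out 1 leaves a lone library that is assumed to vary like the others, and replicate 3 could not be left out of count fits that did not hold it. With 3 libraries per group no exact permutation p under 0.1 was possible, and LIPE, PLIN1 and ACSL5 were too low for fine differences.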

Other observations

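The other genes next to CIDEB were LTB4R, TINF2 and DHRS1, none of which was higher in every pair with both siRNAs. LTB4R, a leukotriene receptor beside LTB4R2, was at 4.39 ± 0.540 FPKM (SD, n = 3) in scramble, 4.22 ± 0.803 after SiREV1#1 and 2.86 ± 0.214 after SiREV1#2. It fell after SiREV1#2 in limma on FPKM with the replicate block (−0.48, SE 0.11, adjusted p = 0.030) but not in edgeR with the block (−0.58, adjusted p = 0.15). TINF2, a shelterin component, was at 14.1, 11.6 and 14.9 FPKM and DHRS1, a short-chain dehydrogenase, at 5.69, 5.81 and 5.57 on average in the same order, and neither passed in edgeR.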
